A study of Mus musculus with 10 samples.

Results

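The cytosolic ribosomal protein genes code for the proteins of the large (60S) and small (40S) ribosomal subunits of the cytoplasm. They were taken here as the rows of the deposited count table whose Ensembl ID maps to a protein-coding symbol starting with Rplp, or with Rpl or Rps and a digit, without Rps27l, Rps19bp1, the Rps6k kinases and symbols containing -ps. The rule found 83 genes of 49671 rows, 52 of the large and 31 of the small subunit, called members here. Rpsa, Fau and Rack1, which also supply ribosomal proteins, fall outside it and are given separately.

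Each ribosome carries 1 copy of nearly every ribosomal protein, bound to ribosomal RNA that is transcribed and assembled in the nucleolus. The exception is the flexible stalk of the large subunit, made of Rplp0 with dimers of Rplp1 and Rplp2, which recruits translation factors. The mRNAs of these proteins start with a terminal oligopyrimidine (TOP) tract, through which mTOR and Larp1 set how strongly they are translated in growing cells such as activated T cells. They are short and abundant, and mammalian genomes hold many intronless copies of them, mostly processed pseudogenes made by reverse transcription. Reads from a gene and a near-identical copy can be hard to assign.

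Stranded total RNA libraries, with globin depletion, were made from TH2 cells, helper T cells polarised in culture from naive CD4+ T cells of C57BL/6 mice of wild-type genotype, and harvested on day 5. In the deficient group, 7 libraries came from mice bred and kept without UV light on food free of vitamin D metabolites. In the control group, 3 libraries came from mice on standard food that held vitamin D3 at 400 IU per kg. All mice were second-generation offspring, and no further treatment was given. Batch 1 held 5 deficient and 2 control libraries, and batch 2 held 2 deficient libraries and 1 control library. The labels do not say that each library came from a separate mouse, so the p-values only reflect how far these libraries scatter, and that scatter may be technical.

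Library totals ran from 7029207 to 13433276 counts in deficient libraries and from 5800698 to 6462146 counts in control libraries, so depth and diet cannot be told apart. Deficient libraries 5 to 7 stood apart in a list of 7 CD8 and cytotoxic genes, with 1458 to 1916 CPM (counts per 1000000 of the library total) against 671 to 1025 CPM in deficient libraries 1 to 4. Deficient libraries 1 and 3 held 657 and 733 CPM of Xist, and no other library exceeded 0.345 CPM. The same cytotoxic list summed to 671 to 1916 CPM in deficient libraries and 94.6 to 192 CPM in control libraries, with all 7 genes higher. The 5 B cell genes summed to 273 to 309 CPM in deficient libraries 5 to 7 and 54.3 to 80.6 CPM in deficient libraries 1 to 4, against 12.0 to 99.2 CPM in control libraries. The 4 mast cell and basophil genes summed to 9.3 to 44.3 CPM in deficient libraries and 4.49 to 5.61 CPM in control libraries, with deficient libraries 5 to 7 at 29.1 CPM or more. The dendritic list summed to 30.7 to 45.2 CPM in deficient libraries and 10.7 to 15.6 CPM in control libraries. Its Batf3 and Zbtb46 were higher, while Flt3 and Itgax did not pass and Xcr1 was not tested. The macrophage and monocyte list summed to 4.69 to 6.57 CPM in deficient libraries and 13.9 to 14.8 CPM in control libraries. There Cd68 was lower, at 3.99 ± 0.709 CPM in deficient libraries and 13.9 ± 0.753 CPM in control libraries. Adgre1, below 1 CPM on average in both groups, was higher, and Csf1r, Lyz2 and Cd14 were not tested. The erythroid list did not exceed 0.321 CPM in any library, with 3 of its 5 genes at 0 in each. The 6 TH2 genes (Gata3, Il4, Il5, Il13, Ccr4, Il4ra) summed to 523 to 679 CPM in deficient libraries and 623 to 679.6 CPM in control libraries, and the 5 T helper genes to 1129 to 1235 CPM in deficient libraries and 1868 to 1929 CPM in control libraries. The defining TH2 markers were therefore present in both groups, but their similar sums hide changes in opposite directions. Of the 6, 2 were higher in deficient libraries (Il5 and Il13), 3 were lower (Gata3, Ccr4 and Il4ra) and Il4 did not pass. Gata3 was at 36.7 ± 3.95 CPM in deficient libraries and 62 ± 4.49 CPM in control libraries. Il13 averaged 199.6 CPM in deficient libraries and 80.9 CPM in control libraries, without overlap. Of the 5 T helper genes, 4 were lower in deficient libraries (Cd3e, Cd4, Cd28 and Trac) and Cd3d did not pass. Cd4 was at 335 ± 30.9 CPM in deficient libraries and 723 ± 13.8 CPM in control libraries, without overlap. In such bulk samples, fewer cells of a type and less RNA per cell cannot be told apart, and the part of these shifts in the results below was not tested.

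Ribosomal protein genes took 11.7% ± 0.548 of all counts in deficient libraries and 11.5% ± 0.431 in control libraries (SD, n = 7 and 3). The shares ran from 10.8% to 12.5% in deficient libraries and from 11.0% to 11.9% in control libraries, so the groups overlapped. Large subunit genes made up 7.05% ± 0.339 of counts in deficient libraries and 6.91% ± 0.243 in control libraries. Small subunit genes made up 4.61% ± 0.212 in deficient libraries and 4.56% ± 0.188 in control libraries. The ratio of large to small subunit counts was 1.53 ± 0.0155 in deficient libraries and 1.52 ± 0.0103 in control libraries, and its ranges also overlapped. With copy rows counted in, the shares were 11.8% ± 0.553 in deficient libraries and 12.0% ± 0.439 in control libraries. The total of ribosomal protein counts thus differed by less than the spread between libraries.

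**Figure D1:**
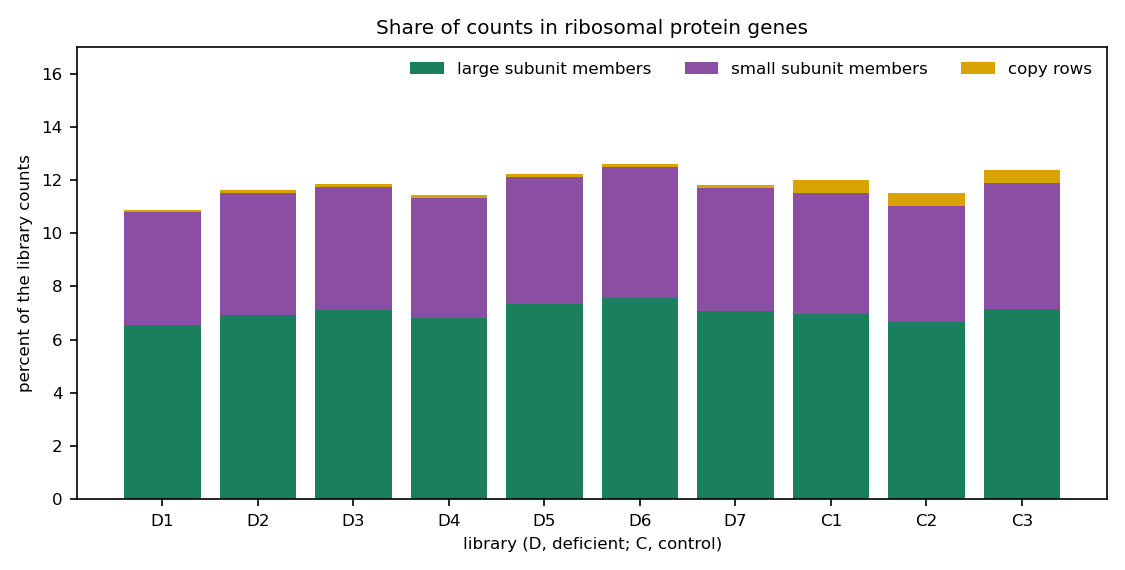
Share of each library's counts, in percent, in large subunit genes, small subunit genes and the 282 copy rows added in the analysis of copies, stacked from 0 for deficient libraries D1 to D7 and control libraries C1 to C3. The member shares of the 2 groups overlap, while the copy rows take 0.101% to 0.116% in deficient libraries and 0.477% to 0.493% in control libraries.

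Single genes did move. In edgeR's quasi-likelihood test with batch as a covariate, 12 of the 81 members tested were higher in deficient cells and 34 were lower at a Benjamini-Hochberg adjusted p below 0.05. Over all 13699 genes tested, 29.4% were higher and 28.6% were lower. The 12 members higher (14.8%) lay below that background and the 34 lower (42.0%) above it. Most members are abundant, and among 1831 non-members averaging at least 100 CPM, 35.7% were higher and 37.9% were lower. Against these abundant genes the share of lower members was only slightly larger, while that of higher members was still smaller. The changes of members were small. Below, a change with its standard error (SE) is a log2 fold change, deficient minus control. The median over members was -0.08, against 0.02 over all genes, and 47 of the 81 lay within 0.2 of 0. Scaling matters for that direction: with column totals instead of TMM factors (edgeR's trimmed-mean scaling between libraries) the median was 0.00, with 19 members higher and 25 lower (33.6% and 24.2% of all genes), and without a count filter it was 0.02, with 20 higher and 20 lower (13.6% and 9.49% of all rows fitted). The median over all genes moved to 0.10 and 0.19 in those fits, and the members' median minus that of all genes lay between -0.17 and -0.07 in each fit run.

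At least 1.5-fold changes past the same threshold were found for 11 members, 13.6% of those tested, against 34.3% of all genes. Each of the 11 belongs to the large subunit, with 6 higher (Rpl26, Rpl29, Rpl35a, Rplp0, Rpl21 and Rpl30) and 5 lower (Rpl37a, Rpl41, Rpl7a, Rpl27a and Rpl11). In the large subunit, 10 genes rose (20%), 24 fell (48%) and 16 did not pass among the 50 tested, with a median of -0.12. In the small subunit, 2 rose (6.45%), 10 fell (32.3%) and 19 did not pass among the 31 tested, with a median of -0.05. Over all genes 29.4% rose and 28.6% fell, so the share of small subunit genes that fell was near that background. The difference between the subunits was not tested. For 34 members (42.0%) all deficient libraries lay on one side of all control libraries, 14 higher and 20 lower, against 50.8% of all genes.

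**Figure D2:**
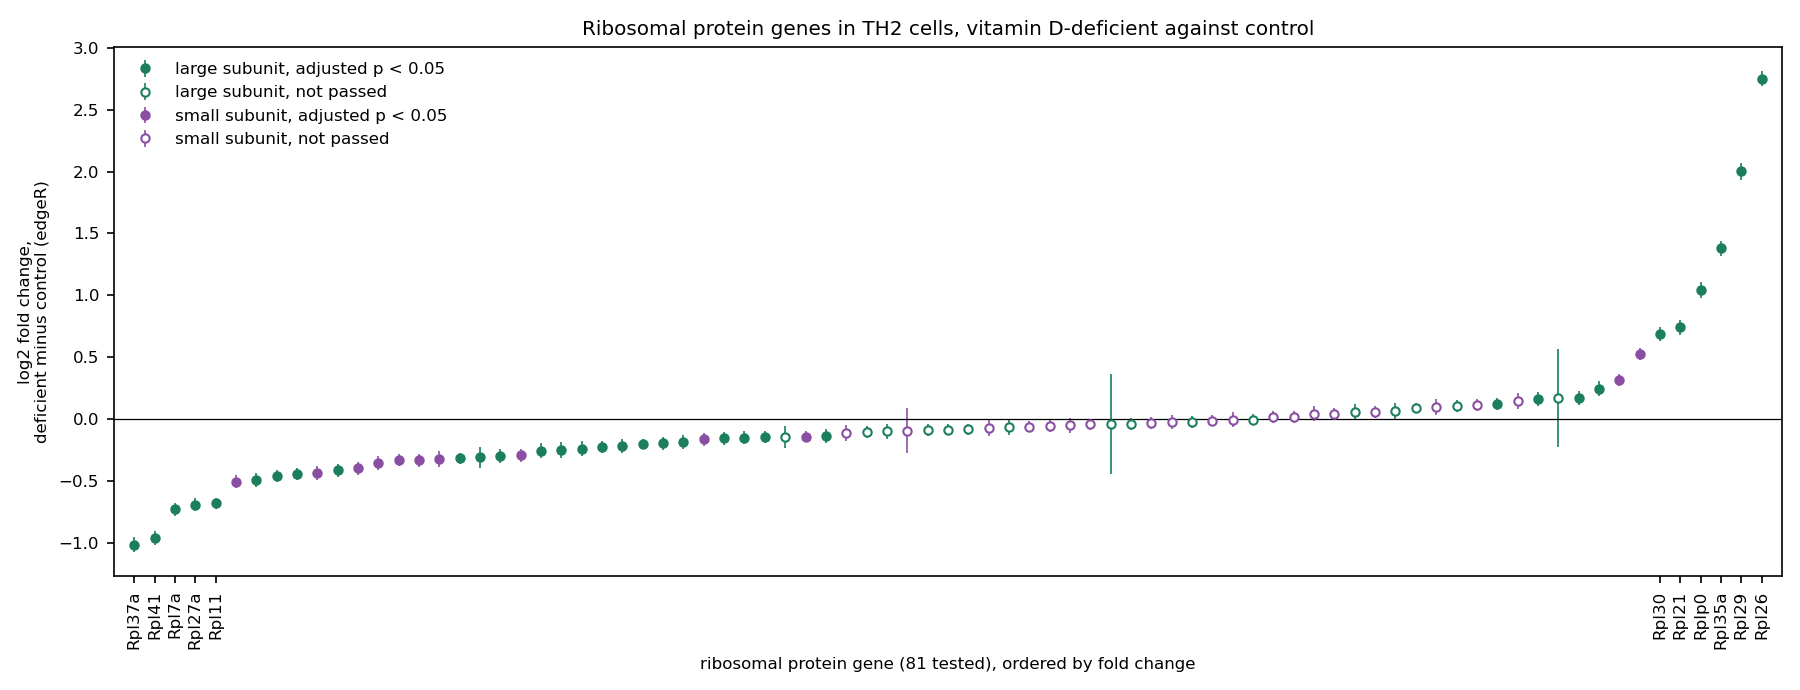
Log2 fold change, deficient minus control, with its standard error (edgeR) for the 81 members tested, ordered from lowest to highest; filled points passed an adjusted p of 0.05, and the axis names those past 1.5-fold. Most points lie near 0, the low end holds Rpl37a at -1.01 and the high end Rpl26 at 2.75.

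Because several of the strongest changes involve genes with near-identical copies, the stretches that carry the difference are shown first. The share of a member's mRNA whose 50-base stretches also occur in another annotated gene had a median of 55.5%, and 49 of the 83 members shared at least 50%. Below are windows of 120 bases of coding sequence for 4 members, each with a copy row that had more counts in control libraries, from the GENCODE M21 transcripts on GRCm38; capitals mark the bases that differ. They show how few positions tell a read of the member from a read of the copy.
Rpl26 coding sequence: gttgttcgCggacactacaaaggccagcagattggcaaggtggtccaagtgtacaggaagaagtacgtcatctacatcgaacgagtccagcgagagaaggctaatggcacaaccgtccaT
Gm15772, chr5:3236599-3236718, + strand: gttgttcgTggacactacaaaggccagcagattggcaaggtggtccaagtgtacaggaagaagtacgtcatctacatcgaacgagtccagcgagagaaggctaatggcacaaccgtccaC
Rplp0 coding sequence: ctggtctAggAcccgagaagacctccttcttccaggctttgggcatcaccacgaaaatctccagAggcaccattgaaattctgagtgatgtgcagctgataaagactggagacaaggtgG
Gm8730, chr8:102865297-102865416, - strand: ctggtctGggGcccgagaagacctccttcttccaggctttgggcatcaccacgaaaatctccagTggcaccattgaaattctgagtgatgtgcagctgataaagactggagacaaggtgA
Rpl29 coding sequence: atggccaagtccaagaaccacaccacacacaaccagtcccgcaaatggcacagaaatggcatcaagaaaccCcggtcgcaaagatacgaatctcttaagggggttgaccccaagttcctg
Gm8210, chr1:43189156-43189275, + strand: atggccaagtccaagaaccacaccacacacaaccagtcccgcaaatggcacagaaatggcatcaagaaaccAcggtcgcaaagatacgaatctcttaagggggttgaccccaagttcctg
Rpl3 coding sequence: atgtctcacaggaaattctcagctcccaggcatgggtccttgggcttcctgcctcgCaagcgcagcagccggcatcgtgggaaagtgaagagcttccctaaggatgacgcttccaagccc
Rpl3-ps1, chrX:13202572-13202691, + strand: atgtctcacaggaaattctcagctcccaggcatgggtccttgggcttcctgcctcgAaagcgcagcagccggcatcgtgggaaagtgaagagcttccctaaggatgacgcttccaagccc
Over the whole coding sequence, 433 of 435 bases were identical between Rpl26 and Gm15772, 939 of 951 between Rplp0 and Gm8730, 477 of 480 between Rpl29 and Gm8210, and 1207 of 1209 between Rpl3 and Rpl3-ps1. The copies Gm8210, Gm9625, Rps3a2, Gm6472 and Gm20568 were chosen for description after their values were seen, as were the members Rps28, Rps3a1, Rps21, Rps2, Rps15, Rpl19, Rpl35, Rpl36a, Rpl32 and Rps12.

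Rpl26 (ENSMUSG00000060938, chr11:68901583-68906989, + strand) showed the largest change of any member. Its protein sits near the exit of the peptide tunnel, and in human cells it also binds the p53 mRNA. It had 1593 to 1782 CPM with a median of 1679 CPM in deficient libraries, against 240.5, 220.3 and 247 CPM in control libraries. Every deficient library was far above every control library, with a change of 2.75 ± 0.06 (SE, adjusted p = 2.72e-14). The intronless copy Gm15772 (chr5:3236431-3236868) went the other way. It had 6.72 to 12.7 CPM with a median of 8.93 CPM in deficient libraries, against 1386, 1343 and 1449 CPM in control libraries, a change of -7.40 ± 0.13 (SE, adjusted p = 9.14e-12). The copy thus held most of the joint counts in control libraries and almost none in deficient libraries. With its 4 copy rows added, Rpl26 came to 1694 ± 73.5 CPM in deficient libraries and 1631 ± 66.6 CPM in control libraries (SD, n = 7 and 3), ranges that overlap, and the log2 fold change was -0.03 ± 0.05 (SE, adjusted p = 0.61). The call for Rpl26 therefore exists for the gene row alone and not for the gene and its copies together. It was 2.76 in batch 1 and 2.75 in batch 2, 2.74 without deficient libraries 5 to 7 and 2.76 without deficient libraries 1 and 3.

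Rplp0, the base of the stalk, also rose. It had 4666 to 5898 CPM with a median of 5409 CPM in deficient libraries, against 2412, 2404 and 2517 CPM in control libraries, without overlap, and its log2 fold change was 1.04 ± 0.06 (SE, adjusted p = 3.30e-09). Gm8730, a processed pseudogene on chromosome 8, had 13.4 to 16.4 CPM with a median of 15.8 CPM in deficient libraries, against 925, 947 and 968 CPM in control libraries. A further copy on chromosome 13, Gm9625, had 7.42 to 11.9 CPM with a median of 9.22 CPM in deficient libraries, against 337, 350.0 and 353 CPM in control libraries. Both copies were low in every deficient library and high in every control library. With the 2 rows added, Rplp0 came to 5365 ± 461 CPM in deficient libraries and 3739 ± 88.3 CPM in control libraries (SD, n = 7 and 3), still without overlap, and the log2 fold change was 0.44 ± 0.06 (SE, adjusted p = 2.25e-05). The increase in Rplp0 was thus smaller but still past the threshold when its copies were counted with it.

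Rplp1 and Rplp2, which form the dimers on the stalk, did not share this increase. Rplp1 had 1771 to 2333 CPM with a median of 2049 CPM in deficient libraries, against 2359, 2358 and 2348 CPM in control libraries. It fell in deficient cells, with a change of -0.31 ± 0.08 (SE, adjusted p = 0.0067) and no overlap. In batch 2 alone its log2 fold change was -0.18, which did not pass. Rplp2 averaged 814 ± 38.5 CPM in deficient libraries and 788 ± 12.1 CPM in control libraries, and its log2 fold change of -0.04 ± 0.05 (SE, adjusted p = 0.56) did not pass.

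Rpl29, a protein of the large subunit that is dispensable for viability in mice, had 607 to 689 CPM with a median of 645 CPM in deficient libraries, against 148, 158 and 149 CPM in control libraries. All deficient values were far above the control values, and the log2 fold change was 2.00 ± 0.07 (SE, adjusted p = 3.82e-12). Its copy Gm8210 on chromosome 1 had 2 counts over all 7 deficient libraries and 871 counts over the 3 control libraries. With 14 copy rows added, Rpl29 still rose, with 648 ± 31.7 CPM in deficient libraries and 203 ± 8.42 CPM in control libraries (SD, n = 7 and 3) and a change of 1.59 ± 0.06 (SE, adjusted p = 4.75e-11). The deficient libraries thus stayed above all control libraries with the copies counted in.

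**Figure D3:**
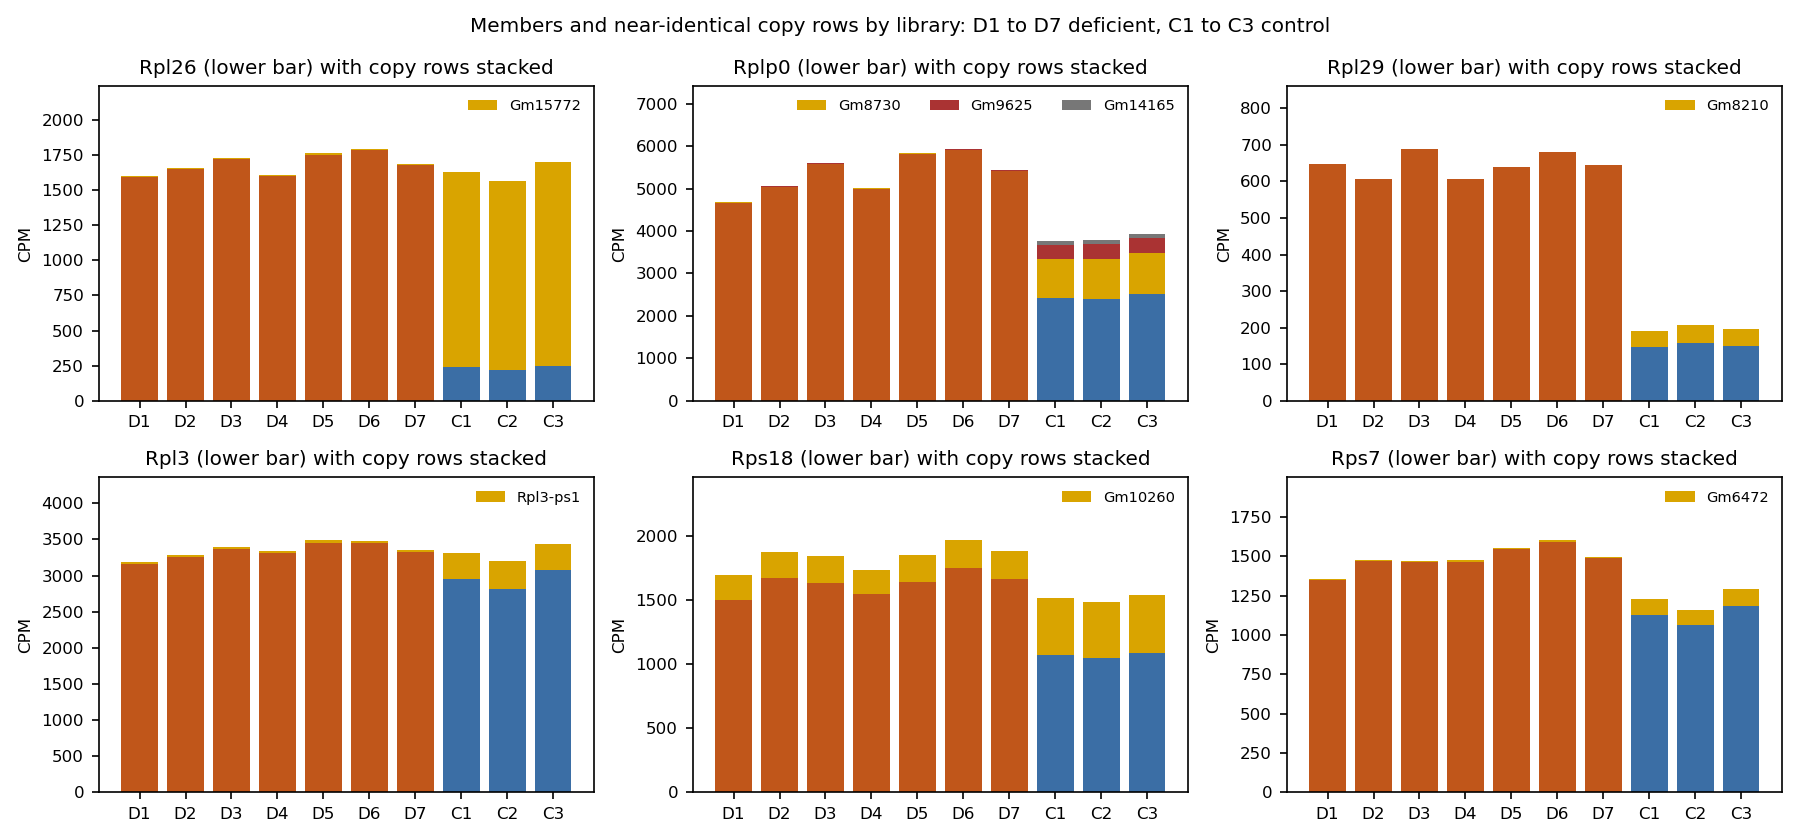
CPM in each library for 6 members with selected copy rows stacked on top, axes from 0. Lower bars are orange for deficient libraries D1 to D7 and blue for control libraries C1 to C3. Stacked rows: Rpl26 (Gm15772), Rplp0 (Gm8730, Gm9625, Gm14165), Rpl29 (Gm8210), Rpl3 (Rpl3-ps1), Rps18 (Gm10260) and Rps7 (Gm6472). Gm14165 was not among the rows added to Rplp0 in the fits, and other added rows are not drawn. For Rpl26 the stacked totals of the groups are alike, for Rplp0, Rpl29, Rps18 and Rps7 the deficient totals are higher, and for Rpl3 the totals overlap.

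Rps18 and Rps7 were the 2 small subunit genes that rose. Rps18, a protein of the head of the 40S subunit, had 1496 to 1746 CPM with a median of 1637 CPM in deficient libraries, against 1069.5, 1045 and 1083 CPM in control libraries, and a change of 0.53 ± 0.05 (SE, adjusted p = 4.06e-07). Gm10260, an intronless row annotated as protein-coding on chromosome 13, fell in deficient cells, with 189.5 to 218 CPM with a median of 212 CPM there, against 444, 439 and 456 CPM in control libraries. Neither row overlapped between the groups, and they moved in opposite directions. With copies added, the log2 fold change of Rps18 was 0.19 ± 0.05 (SE, adjusted p = 0.0034).

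Rps7, which in human cells is mutated in some cases of Diamond-Blackfan anaemia, a red cell disorder of ribosomal protein genes, had 1347 to 1591 CPM with a median of 1467 CPM in deficient libraries, against 1128, 1061 and 1183 CPM in control libraries. Its log2 fold change was 0.32 ± 0.05 (SE, adjusted p = 5.56e-05), and 0.20 ± 0.05 (SE, adjusted p = 0.0025) with copies. Its copy Gm6472 on the X chromosome averaged 9.51 ± 1.24 CPM in deficient libraries and 102 ± 7.51 CPM in control libraries. Here too the copy was low in every deficient library and high in every control library.

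Rpl3, which reaches towards the peptidyl transferase centre, showed the same opposition without passing the test. It had 3163 to 3456 CPM with a median of 3327 CPM in deficient libraries, against 2959.6, 2814 and 3074 CPM in control libraries, without overlap, and its log2 fold change of 0.09 ± 0.04 (SE, adjusted p = 0.068) did not pass. Its X-linked copy Rpl3-ps1 had 24.9 to 29.7 CPM with a median of 26.7 CPM in deficient libraries, against 354, 384 and 365 CPM in control libraries, a change of -3.87 ± 0.06 (SE, adjusted p = 5.07e-16). With copies added the log2 fold change of Rpl3 was -0.07 ± 0.04 (SE, adjusted p = 0.17). Rps3a1 behaved alike, at 0.12 ± 0.05 alone and 0.00 ± 0.05 (SE, adjusted p = 0.98) with copies, while its copy Rps3a2 averaged 8.54 ± 1.05 CPM in deficient libraries and 146 ± 12 CPM in control libraries.

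Such copies were a minority. Rows that share at least 20% of a member's stretches and are pseudogenes, or carry a Gm or -ps symbol, numbered 282 for 64 members, and 129 of them were tested. Of these, 5 (3.88%) were higher and 38 (29.5%) lower in deficient cells, against 29.4% and 28.6% of all genes, and 81 lay within 1.5-fold. The 8-fold cut used next was not among the thresholds set with the design. A fall of at least 8-fold past the threshold was found for 10 of the 129 (7.75%), against 0.993% of all genes. They belong to 7 members: Rpl26, Rplp0, Rpl29, Rpl3, Rps3a1, Rps7 and Rps28. For Rps28, the copy Gm20568 averaged 0.481 ± 0.187 CPM in deficient libraries and 25.6 ± 0.538 CPM in control libraries. The Rps28 gene itself had a change of -0.05 ± 0.06 (SE, adjusted p = 0.48), and -0.14 ± 0.06 (SE, adjusted p = 0.048) with copies. Together the copy rows took 0.109% ± 0.0056 of counts in deficient libraries and 0.483% ± 0.0090 in control libraries (SD, n = 7 and 3), with no overlap.

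When copies were added to their members, 11 members were higher and 35 lower, against 29.6% and 28.6% of all genes in that fit. All 11 were among the 12 higher before, and all 34 lower members remained lower. Rpl26 dropped out of the higher members, and Rps28 passed among the lower. At least 1.5-fold changes past the threshold were then found for 4 members higher and 5 lower. Rpl26 and Rplp0 were no longer among those higher. The changes of Rpl35a, Rpl21, Rpl30, Rpl37a, Rpl41, Rpl7a, Rpl27a and Rpl11 moved by less than 0.05 on the log2 scale.

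**Figure D4:**
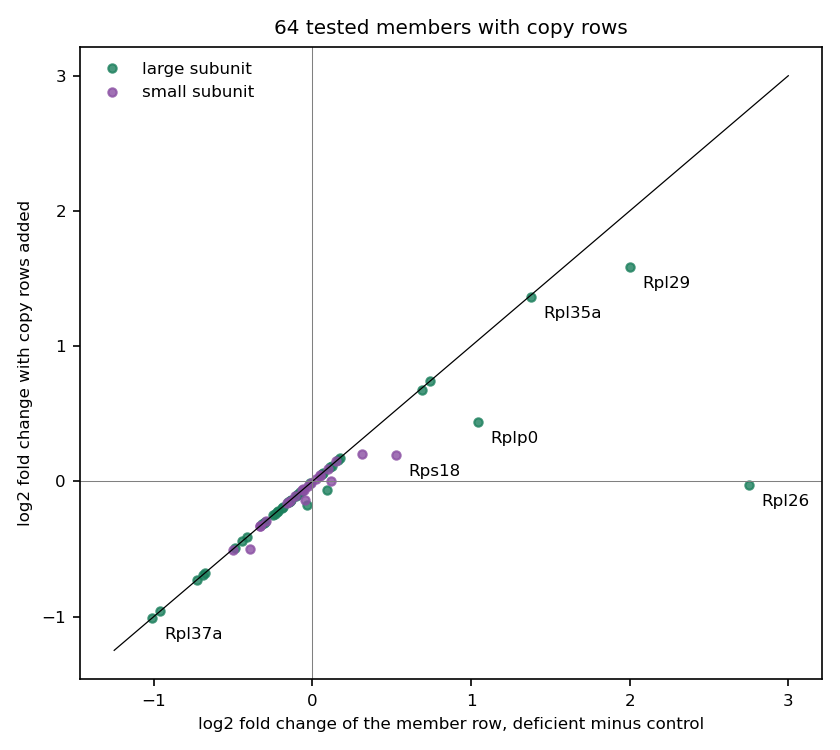
Log2 fold change of the member row (horizontal) and of the member with its copy rows added (vertical), deficient minus control, for the 64 tested members with copy rows; the line marks equal values. Rpl26, Rplp0, Rps18 and Rpl29 lie clearly below the line, and Rpl35a and Rpl37a lie on it.

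Rpl35a, a large subunit protein also mutated in human Diamond-Blackfan anaemia, had the largest increase that copies did not alter. It had 663 to 799.6 CPM with a median of 727 CPM in deficient libraries, against 268, 242 and 287 CPM in control libraries. Every deficient value exceeded every control value by a wide margin, and the log2 fold change was 1.38 ± 0.06 (SE, adjusted p = 6.05e-11), or 1.36 ± 0.06 (SE, adjusted p = 7.92e-11) with 10 copy rows. Rpl21 had 1476 to 1827 CPM with a median of 1608 CPM in deficient libraries, against 922, 868 and 997 CPM in control libraries, and a change of 0.74 ± 0.06 (SE, adjusted p = 5.47e-08). Rpl30, whose protein also contributes to selenocysteine incorporation in mammalian cells, had 869 to 1061 CPM with a median of 992 CPM in deficient libraries, against 587, 528 and 613 CPM in control libraries. Its log2 fold change was 0.69 ± 0.06 (SE, adjusted p = 8.68e-08). For both genes the deficient libraries lay above all control libraries. The lesser increases of Rpl7l1 (0.25 ± 0.06), Rpl19 (0.16 ± 0.06), Rpl5 (0.17 ± 0.06) and Rpl35 (0.13 ± 0.05) complete the 12.

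The strongest decrease was that of Rpl37a, a zinc-binding protein of the large subunit. It had 482 to 606 CPM with a median of 542 CPM in deficient libraries, against 983, 1014 and 1045 CPM in control libraries. The deficient libraries lay close together, well below all control libraries, and the log2 fold change was -1.01 ± 0.06 (SE, adjusted p = 1.86e-09). Rpl41, the shortest ribosomal protein, had 1018 to 1229.9 CPM with a median of 1069 CPM in deficient libraries, against 2035, 2062 and 2013 CPM in control libraries, and a change of -0.96 ± 0.06 (SE, adjusted p = 2.32e-09). The rows Gm10076 and Gm10736, which share sequence with Rpl41 and were named after their values were seen, moved the same way as the gene. Gm10076 averaged 19.7 ± 4.9 CPM in deficient libraries and 39 ± 4.96 CPM in control libraries, and Gm10736 averaged 74.7 ± 12.2 CPM in deficient libraries and 152 ± 14.5 CPM in control libraries.

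Rpl7a, a large subunit protein that binds RNA, had 1207 to 1416 CPM with a median of 1320.2 CPM in deficient libraries, against 2082, 1995 and 2085 CPM in control libraries. Its log2 fold change was -0.73 ± 0.05 (SE, adjusted p = 2.37e-08). Rpl27a had 711 to 815 CPM with a median of 750.2 CPM in deficient libraries, against 1183, 1109 and 1132 CPM in control libraries, and changed by -0.69 ± 0.05 (SE, adjusted p = 3.45e-08). Both genes were lower in every deficient library than in any control library.

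**Figure D5:**
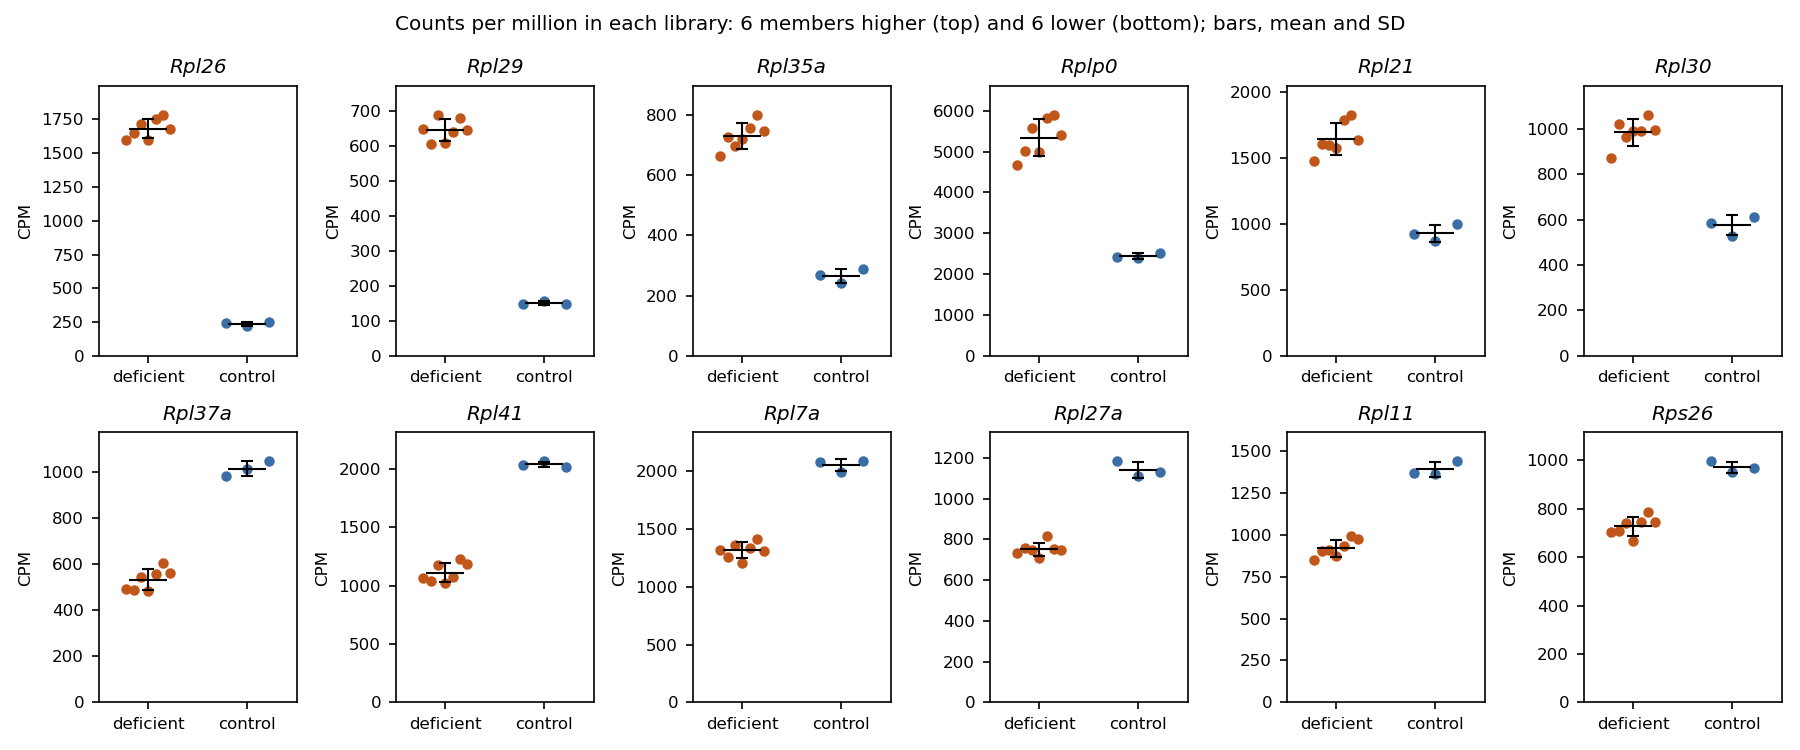
CPM in each library, on linear axes from 0, for 6 members that were higher (top row) and 6 that were lower (bottom row), with deficient libraries left of control libraries; the bars give the mean and SD (n = 7 and 3). In none of the 12 panels do the groups overlap.

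Rpl11 and Rpl5 form a particle with 5S ribosomal RNA that joins the large subunit, and that binds Mdm2 and so protects p53 when assembly fails. Rpl11 had 849 to 994 CPM with a median of 906 CPM in deficient libraries, against 1368, 1361 and 1437 CPM in control libraries, and fell without overlap, with a change of -0.68 ± 0.05 (SE, adjusted p = 8.63e-09). Rpl5 had 2335 to 2995 CPM with a median of 2738 CPM in deficient libraries, against 2315, 2109 and 2351 CPM in control libraries, so that the lowest deficient library lay within the control range. Its log2 fold change of 0.17 ± 0.06 (SE, adjusted p = 0.019) was in the opposite direction to that of Rpl11. Without control library 2 or 3, without deficient libraries 5 to 7, or in batch 1 alone, Rpl5 no longer passed, and its log2 fold change lay between 0.13 and 0.15. Mdm2 averaged 237 ± 38.6 CPM in deficient libraries and 99.7 ± 3.96 CPM in control libraries and Trp53, the p53 gene, averaged 14.9 ± 0.859 CPM in deficient libraries and 8.46 ± 1.08 CPM in control libraries, both higher in deficient cells (changes of 1.16 ± 0.13, adjusted p = 1.09e-05 and 0.73 ± 0.13, adjusted p = 1.88e-04).

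Of the small subunit genes that fell, Rps26, which lies where mRNA leaves the 40S subunit, had the largest change. It had 665 to 787 CPM with a median of 739 CPM in deficient libraries, against 995, 950.1 and 969.6 CPM in control libraries, and a change of -0.50 ± 0.05 (SE, adjusted p = 1.64e-06). Rps21 (-0.43 ± 0.05), Rps2 (-0.39 ± 0.05) and Rps15 (-0.35 ± 0.06) also fell. For each of these the groups did not overlap. Rps27 also passed (-0.32 ± 0.06), with overlapping groups.

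Several small subunit genes known for regulation were near 0. Rps6, the target of the S6 kinases downstream of mTOR, had 1225 to 1296 CPM with a median of 1269 CPM in deficient libraries, against 1202, 1150.0 and 1254 CPM in control libraries, and a change of -0.01 ± 0.04 (SE, adjusted p = 0.86). Rps3, at the mRNA entry and also a DNA repair factor, averaged 3452 ± 179 CPM in deficient libraries and 3216 ± 108 CPM in control libraries, a change of 0.02 ± 0.05 (SE, adjusted p = 0.76). Rps19, the gene most often mutated in human Diamond-Blackfan anaemia, averaged 1544 ± 148 CPM in deficient libraries and 1415 ± 41 CPM in control libraries, a change of 0.04 ± 0.06 (SE, adjusted p = 0.55). In all 3 the groups overlapped. Rps3 shares 2.96% of its stretches with other annotated genes, so almost all of its sequence is its own.

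Among large subunit genes with described functions beyond the ribosome, Rpl22 is needed for the development of alpha-beta T cells in mice and has the paralogue Rpl22l1. Rpl22 had 692 to 766 CPM with a median of 732 CPM in deficient libraries, against 967, 901 and 997 CPM in control libraries, and fell without overlap, with a change of -0.46 ± 0.05 (SE, adjusted p = 1.12e-06). Rpl22l1 averaged 467 ± 31.7 CPM in deficient libraries and 423 ± 25.9 CPM in control libraries, with overlapping groups, and its log2 fold change of 0.06 ± 0.06 (SE, adjusted p = 0.45) did not pass. Whether the 2 genes differed in their change was not tested.

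Rpl7, which contacts 5S ribosomal RNA, fell to 2922 to 3467 CPM with a median of 3071 CPM in deficient libraries, against 4046, 3792 and 4227 CPM in control libraries, a change of -0.44 ± 0.05 (SE, adjusted p = 3.43e-06). Its paralogue Rpl7l1, a factor of nucleolar pre-ribosomes, averaged 120.4 ± 5.15 CPM in deficient libraries and 95.8 ± 5.09 CPM in control libraries and rose. Rpl38, required for skeletal patterning in mouse embryos, fell, with a change of -0.30 ± 0.06 (SE, adjusted p = 3.49e-04). Rpl10a, another protein linked to selective translation, had a change of -0.15 ± 0.06 (SE, adjusted p = 0.034), and 15 of 27 alternative fits left it above the threshold. Rpl13a, which in human myeloid cells leaves the ribosome to silence inflammatory mRNAs, averaged 84 ± 6.65 CPM in deficient libraries and 87.3 ± 7.81 CPM in control libraries and did not pass (-0.14 ± 0.09). Rpl13a shares 57.4% of its stretches with other annotated genes, and how reads that match several loci were counted is not given. Rpl4, a large subunit protein that lines the peptide tunnel, averaged 5264 ± 213 CPM in deficient libraries and 5259 ± 203 CPM in control libraries, a change of -0.08 ± 0.04 (SE, adjusted p = 0.12).

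All 4 X-linked members fell, with log2 fold changes of -0.33 ± 0.05 (SE, adjusted p = 7.23e-05) for Rps4x, -0.22 ± 0.06 (SE, adjusted p = 0.0047) for Rpl10, -0.25 ± 0.06 (SE, adjusted p = 0.0016) for Rpl39 and -0.18 ± 0.06 (SE, adjusted p = 0.01) for Rpl36a. Rps4x, which has a Y-linked partner in humans but not in mice, had 2718 to 3240.1 CPM with a median of 2929.6 CPM in deficient libraries, against 3592, 3274 and 3766 CPM in control libraries, without overlap. The other 3 overlapped between the groups. Of the 77 autosomal members tested, 12 rose (15.6%) and 30 fell (39.0%), against 29.4% and 28.6% of all genes. Whether the 4 X-linked members differed from the autosomal members was not tested. Without deficient libraries 1 and 3, the 2 libraries with Xist, the log2 fold change of Rps4x was -0.30. Rpl10 missed the threshold with column totals (-0.13), without a count filter (-0.11), in batch 2 alone and without control library 1 (-0.15 in both).

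Other paralogues ranged from no counts to well above 100 CPM. Rpl10l, a testis paralogue of Rpl10, had 0 counts in every library, which allows up to 3 counts in each. Rpl3l, the muscle paralogue of Rpl3, averaged 0.0526 ± 0.07 CPM in deficient libraries and 0.0575 ± 0.0995 CPM in control libraries and was not tested. Rpl39l averaged 0.941 ± 0.26 CPM in deficient libraries and 0.761 ± 0.127 CPM in control libraries, and its groups overlapped. Rps27rt, an intronless copy of Rps27, averaged 6.88 ± 1.26 CPM in deficient libraries and 6.93 ± 0.667 CPM in control libraries, and Rpl36al, the autosomal paralogue of Rpl36a, averaged 193 ± 12.1 CPM in deficient libraries and 174 ± 14 CPM in control libraries. None of these 3 tested paralogues passed.

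Levels can be compared between genes only per length. In CPM per kb of the chosen mRNA, 66 of the 81 tested members were above 1000 on the mean over all libraries, 10 were between 100 and 1000 and 5 were below 100. These values depend on the transcript chosen. A member with a chosen mRNA of 3706 bases, of which 357 are coding, stood at 579 in deficient libraries and 563 in control libraries. The median member stood at 1805 in deficient libraries and 1782 in control libraries. Rpl32 was at 4720.0 ± 269.6 in deficient libraries and 4464 ± 147 in control libraries CPM per kb (SD), and Rps12 at 4564 ± 215 in deficient libraries and 4816 ± 260.4 in control libraries CPM per kb. These were the 2 highest means in deficient libraries, where they did not differ beyond their spread. Rplp1 was at 4039 ± 444 in deficient libraries and 4719 ± 12.3 in control libraries CPM per kb, and Rpl41 at 2542 ± 190.4 in deficient libraries and 4660.3 ± 56.6 in control libraries CPM per kb. In control libraries Rps12, Rplp1 and Rpl41 had the highest means, each above Rpl32. At the low end, Rpl24 was at 1.62 ± 0.55 in deficient libraries and 1.52 ± 0.143 in control libraries CPM per kb although its protein is part of every ribosome. Rpl24 shares 81.7% of its stretches with other annotated genes. With its 3 copy rows it summed to 14.7 ± 1.35 CPM in deficient libraries and 15.8 ± 1.55 CPM in control libraries.

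The ribosomal proteins outside the symbol rule gave the following. Rpsa, the small subunit protein also known as the laminin receptor, averaged 4971 ± 192 CPM in deficient libraries and 5201 ± 170.3 CPM in control libraries, a change of -0.15 ± 0.04 (SE, adjusted p = 0.0054). Rack1, a signalling scaffold on the small subunit, averaged 4906 ± 259 CPM in deficient libraries and 4399 ± 118 CPM in control libraries, a change of 0.07 ± 0.05 (SE, adjusted p = 0.20). Fau, which encodes a ubiquitin-like protein fused to Rps30, averaged 901 ± 83.9 CPM in deficient libraries and 864 ± 28.7 CPM in control libraries, a change of -0.02 ± 0.07 (SE, adjusted p = 0.78).

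Replicate libraries were alike in these genes. For the 78 members of at least 50 CPM, the coefficient of variation had a median of 5.73% over deficient libraries and 3.69% over control libraries, and no member exceeded 11.0% in either group. For batch 2 against batch 1, 0 of 81 members passed in edgeR, against 0% of all genes, and 7 members had an unadjusted p below 0.05. Within batch 2, where 2 deficient libraries faced 1 control library, 10 members were higher and 21 lower, against 23.5% and 23.4% of all genes. Within batch 1, 9 members were higher and 30 lower, against 24.7% and 23.6% of all genes. The lone control library of batch 2 is assumed there to vary like the deficient libraries. No member differed in its diet effect between the batches in edgeR (0 at an unadjusted p below 0.05, and 0% of all genes at the adjusted threshold).

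Lists of genes that act with the ribosomal proteins are read against the 29.4% higher and 28.6% lower among all genes, and no difference between lists was tested. Of 42 nucleolar assembly genes in the table, 38 were higher, none was lower and 4 did not pass, with a median log2 fold change of 0.69. Examples are Fbl, the methyltransferase of box C/D particles (66.4 ± 6.23 CPM in deficient libraries and 30.6 ± 4.98 CPM in control libraries), Dkc1, the pseudouridine synthase dyskerin (103 ± 9.28 CPM in deficient libraries and 40 ± 7.48 CPM in control libraries), and Utp20 of the small subunit processome (134 ± 11.7 CPM in deficient libraries and 36.9 ± 4.07 CPM in control libraries). Ncl, nucleolin, averaged 500.2 ± 43.2 CPM in deficient libraries and 435 ± 25.7 CPM in control libraries and did not pass. Of 14 genes of RNA polymerase I and its factors, 8 were higher and 4 lower, with Polr1a, the largest subunit, at 1.30 ± 0.08, adjusted p = 4.52e-09.

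Among 19 other TOP-type mRNAs, 2 were higher and 11 lower, with a median of -0.22. Eef1a1, the elongation factor that delivers tRNA, averaged 19099.9 ± 1439 CPM in deficient libraries and 24123 ± 940.4 CPM in control libraries and fell (-0.42 ± 0.05, adjusted p = 6.39e-06). Eef2, the translocase, fell by less (-0.18 ± 0.05, adjusted p = 0.0034), and Btf3, a subunit of the nascent chain complex, rose (0.57 ± 0.05, adjusted p = 2.00e-07). Its partner Naca fell (-0.83 ± 0.06, adjusted p = 1.18e-08), and Gas5, a host of small nucleolar RNAs that carries a TOP start, rose (1.47 ± 0.11, adjusted p = 5.55e-07). Over all translation factors with an Eif or Eef symbol, 28 of 63 tested were higher and 16 lower, with a median of 0.05.

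Of 77 mitochondrial ribosomal protein genes tested, 41 were higher, 6 lower and 30 did not pass, with a median of 0.26. Among 21 genes that signal to the ribosome, 8 were higher and 7 lower (38.1% and 33.3%, near the shares of all genes): Larp1, the TOP-binding repressor, rose (0.39 ± 0.10, adjusted p = 0.0028), Mtor fell (-0.34 ± 0.07, adjusted p = 4.55e-04), and Myc did not pass (0.13 ± 0.13, adjusted p = 0.39). Of 9 chaperones and importers tested, 3 were higher and 3 lower (33.3% each), with Grwd1, a chaperone of Rpl3, rising (1.53 ± 0.13, adjusted p = 1.06e-07). Of 7 genes for rescue of stalled ribosomes, 2 were higher and 2 lower (28.6% each, as among all genes), with Abce1, which splits ribosomes, at 0.14 ± 0.06, adjusted p = 0.046. The 5 genes of dividing cells summed to 1582 to 2569.8 CPM in deficient libraries and 3271 to 3445 CPM in control libraries, 1 higher and 4 lower. Whether proliferation or the cytotoxic genes had a part in these differences was not tested.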

How the data were processed

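The authors deposited raw counts for each Ensembl ID. The submitters' processing notes name STAR 2.7.10a, HTSeq 0.13.5 and the build GRCm38. How reads that match several loci or a strand were counted is not given in the sources used here. Of 49671 rows, 49412 IDs matched GENCODE M21. Members and gene lists were chosen with earlier results of these data known. CPM are counts per 1000000 of the column total, and library totals of 5800698 to 13433276 counts limit the precision of rows of a few CPM.

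Genes with low counts were removed with edgeR's filterByExpr (minimum count 10), leaving 13699. Diet was tested with edgeR 4.0.16 (R 4.3.3), TMM factors, batch as a covariate and robust quasi-likelihood fits, with Benjamini-Hochberg adjustment over all genes. The biological coefficient of variation was 12.7%. On simulated counts for 13699 genes with this design, the test found 26 of 67 genes with a simulated 1.5-fold change, 53 of 67 at 2-fold and 59 of 66 at 4-fold, with 8 false calls among 146. The simulation held no batch effect and drew its changed genes from all levels of expression. Far fewer genes changed in it than the 58.0% called in the data. These recovered numbers therefore do not give the power for members. Interactions between diet and batch were fitted in the same way.

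Shared sequence was measured as the share of a member's 50-base stretches that occur on the same strand in transcripts of another GENCODE gene. The member's best-ranked transcript of GENCODE was used, and the other gene need not have a row in the count table. Copy rows share at least 20%. Named genes are the 8 members with the smallest adjusted p in each direction, the 3 largest changes in each direction, the 4 highest and 2 lowest by mean CPM, paralogues and their partners, the 4 copy rows with most counts, and genes with known roles listed with the design; other members, copies and list genes were named after their values were seen. Some ribosomal protein genes are not reported here by name. Within-group pairs of libraries differed by more than counting noise (mean chi-square per row of at least 2.82 in 24 pairs), so none was treated as a repeat.

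Alternatives were RLE, upper-quartile, column-total and protein-coding-total scaling, removal of small RNA, mitochondrial and haemoglobin rows, DESeq2 1.42.0, limma-voom 3.58.1, no filter or a minimum count of 50, fits without robust estimation, no batch term, each batch alone, fits without some deficient libraries, a length and GC offset, copies added to members, other thresholds, and each library left out in turn.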

Additional observations from a re-analysis of the deposited data

Results flagged for a closer look

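Among the named members tested, their named copy rows and the shares of counts, 1 value in the 7 deficient libraries stood far from the rest. Gm15772, the copy of Rpl26, had 12.7 CPM in deficient library 3, and the next highest deficient library had 9.23 CPM. All 3 control libraries were above 1300 CPM. Chance alone marks about 1 in 20 such groups, and 47 were looked at. The 3 control libraries were too few for the same check.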

How the results depend on the processing

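Over all genes, 4032 of 13699 were higher in the reported fit, 4601 of 13699 with column totals and 4498 of 13675 with protein-coding totals. The counts of 12 members higher and 34 lower became 19 higher with column totals and 19 with protein-coding totals. Without a count filter they became 20 and 20, and in batch 2 alone 21 were lower. At 1.5-fold they were 6 and 5, and among members sharing under 10% of their stretches 0 and 1 (of 5 tested). Those 5 include a member whose chosen mRNA holds 3706 bases, of which 357 are coding, and 29 rows share sequence with it. The low share of that member therefore depends on the transcript chosen. In the large subunit (10 higher, 24 lower) 12 were lower without a filter and 12 in batch 2 alone, 6 and 5 passed at 1.5-fold, and 0 and 1 among members sharing under 10%. Higher members of the small subunit (2 in the reported fit) numbered 4 with upper-quartile scaling, 7 with column totals, 7 with protein-coding totals, 8 without a filter, 4 without deficient libraries 1 and 3, and 0 at 1.5-fold and among members sharing under 10%, where 0 were lower as well. The median log2 fold change of members, -0.08, was 0.0036 with column totals, 0.023 without a filter and -0.0020 over members sharing under 10%. The cause of these shifts was not tested. Leaving out each library in turn gave 9 to 15 members higher and 25 to 35 lower. Over all genes, those fits gave 3432 to 4107 higher and 3341 to 3989 lower, of 13076 to 14120 tested. In the large subunit 7 to 11 members were higher and 17 to 24 lower, and in the small subunit 2 to 4 and 8 to 11. The medians of members ran from -0.11 to -0.041. The share of counts, 0.188 percentage points higher in deficient libraries, differed by -0.037 to 0.393 points without single libraries. Of 40 named genes, 28 kept their side of the threshold in each alternative fitted, and 12 changed in at least 1. Rpl26 changed direction with copies added, to -0.030, the only named gene past the threshold to do so. Of those not past it, 11 (Fau, Rpl13a, Rpl22l1, Rpl24, Rpl3, Rpl4, Rplp2, Rps19, Rps27rt, Rps3 and Rps6) had values of both signs, between -0.24 and 0.20, so they have no stable direction. Rpl5, Rpl10, Rpl10a, Rpl39, Rpl7l1, Rplp1 and Rpsa lost their call in at least 1 alternative. Rpl3, Rpl4, Rps19 and Rack1 gained one. No member passed for batch 2 against batch 1 or for diet by batch with RLE scaling or without robust estimation. Depth limits rows of a few counts, such as Rpl24 and Rpl39l. No paired analysis was possible because the labels give no replicate numbers that link libraries of the 2 diets.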
